A study of Fragaria x ananassa with 4 samples.

Results

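Genes annotated as enzymes of volatile formation were compared between red (R) and small green (G1) receptacle of Fragaria × ananassa, the fleshy tissue that bears the achenes. They were taken from the descriptions on the array by their words: lipoxygenase, hydroperoxide lyase, alcohol dehydrogenase, pyruvate decarboxylase, alcohol acyl, benzoyltransferase, transferase family protein or carboxylesterase. Of 35117 sequences, 212 held such a word, and 31 of these were set aside because they also named cinnamyl, mannitol or coumarate compounds or sugar transfer, or were the known acyltransferases FaAAT1 and FaAAT2. The remaining 181 genes are described here. Total RNA from 2 red and 2 green samples was labelled with Cy3 and hybridised to 4 custom one-colour Agilent arrays that carry the gene models of the woodland strawberry. Both groups were fruits with no treatment, from plants kept in a chamber and then a greenhouse per the labels, whereas the methods describe plants of the field and RNA from pooled fruits freed of achenes. The labels do not say how the fruits were divided between the samples, and p-values therefore measure only the spread between these samples, which may be technical.

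Volatile esters, aldehydes and alcohols give strawberry its aroma. In plants, lipoxygenases add oxygen to linoleic and linolenic acid, and the hydroperoxides are then cleaved by hydroperoxide lyase to short aldehydes with a green note or turned by allene oxide synthase towards jasmonate. Pyruvate decarboxylase releases acetaldehyde from pyruvate, alcohol dehydrogenases interconvert aldehydes and alcohols, alcohol acyltransferases of the BAHD family join an alcohol to an acyl-CoA to make an ester, and carboxylesterases hydrolyse esters. Most of these enzymes belong to large families, so a description such as benzoyltransferase or alcohol dehydrogenase also covers enzymes that work on hydroxycinnamates, sugars, glycerol phosphate or hormones. Descriptions are by sequence likeness only, and no sequence is shown for these gene models.

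A level is given as the log2 of the processed signal relative to the 75th percentile of the same array, so 0 is the 75th percentile and each unit is a doubling. It serves to compare a gene between arrays, not different genes with each other. Of the 181 genes, 134 gave a signal well above background on 2 or more of the 4 arrays and were tested, and 47 were not tested, of which 39 were well above background on 0 arrays and 8 on 1 array. The median gap between the arrays of a stage was 0.10 log2 units over the red arrays and 0.11 over the green arrays for these 134 genes. The libraries matched their labels for most markers: FaMYB10, FaQR and FaCAD1, genes of ripe receptacle, were 7.63, 6.75 and 8.40 log2 units higher in red, and of 53 tested photosynthesis genes 51 were lower. The study names gene30478 FaPRE1 and describes it, from qRT-PCR, as a ripening gene. On the arrays here its probe was at -0.39 and -0.45 in red, against 0.18 and 0.28 in green. This probe (log2 fold change -0.65, adjusted p = 0.0025 in limma) did not follow that description. A separate probe entered on the array under the name FaPRE1 did, at 0.77 and 0.74 in red and -1.60 and -1.99 in green (log2 fold change 2.55, adjusted p = 4.9e-04). Markers of achene and embryo were also mostly higher in red: 28 of 34 tested genes (of 37 in the list, 3 were too dim), with summed levels relative to the 75th percentile of 182 and 189 on the red arrays, against 68.6 and 73.9 on the green arrays. Their part in the results below was not tested. In bulk tissue, fewer cells of a type and less RNA per cell cannot be told apart.

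In red receptacle, lower volatile enzyme genes outnumbered higher ones. Of the 134 tested genes, 44 were higher and 68 lower in red at an adjusted p under 0.05 in limma, and 22 did not pass, whereas of all 24975 genes tested 37.8% were higher and 35.1% lower, 72.8% in all. By at least 2-fold, 37 were higher and 58 lower, against 17.4% and 21.5% of all genes. The median log2 fold change was -0.52, against 0.04 over all genes. Among the 111 genes with no stage at background (not well above background on either array), 38 were higher and 51 lower. Their median was -0.32, and the range ran from -6.39 to 6.66. The other tested genes, 17 lower and 6 higher in red, passed the filter only through the stage where they were high. Both red arrays were above both green arrays in 48 of the 134 genes and below them in 74, against 45.1% and 42.0% of all genes, and the stages overlapped in 12. The balance moved with the values used. Quantile normalization gave 46 higher and 64 lower. In the study's own RMA matrix the median of all genes was shifted to 0.51, and 55 members were higher and 59 lower, with 68.9% of all calls higher in red rather than 51.9%. With normexp background correction 37 were higher and 78 lower, and 40.0% of all calls were higher. With the slide as a block, that is, without red replicate 1, which was alone on its slide and scan, 40 were higher and 66 lower.

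**Figure D1:**
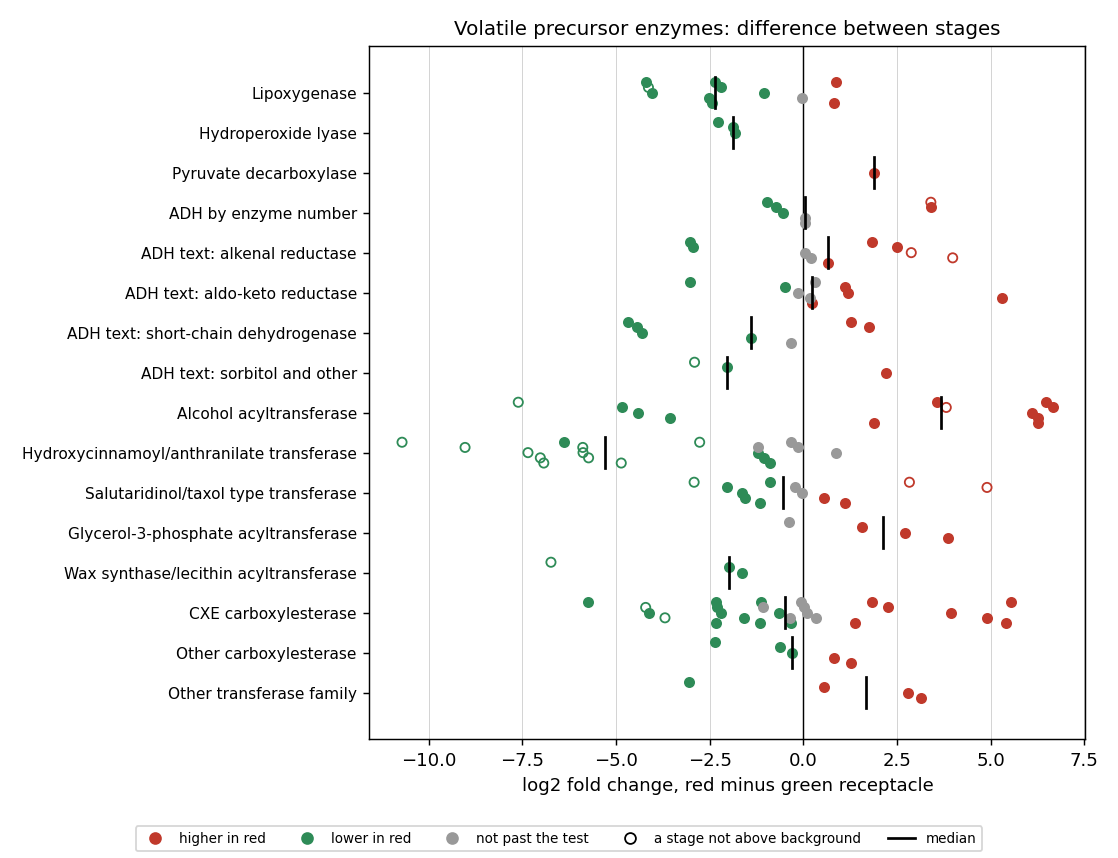
Log2 fold change (red minus green receptacle, x axis) of each of the 134 tested genes, by class and annotation subgroup (rows); points are genes coloured by the limma call, open points are genes not above background on either array of a stage, and bars are medians. Lipoxygenases lie mostly left of 0 (median -2.35), alcohol acyltransferases mostly right of 0 (median 3.69) and hydroxycinnamoyl or anthranilate transferases mostly left of 0 (median -5.30). Most genes of this last subgroup are open points, at background in red.

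The first step of the fatty acid branch was lower in red receptacle. Of 17 lipoxygenase genes 11 were tested, with 8 lower, 2 higher and 1 not past the test. That is 72.7% lower and 18.2% higher, against 35.1% and 37.8% of all genes. In the RMA matrix 8 were lower and 3 higher. All 8 that fell in the main fit did so by more than 2-fold, as did 21.5% of all genes, with a class median of -2.35. On the red arrays gene05824 was at -1.24 and -1.22, against 3.05 and 2.91 on the green arrays. This was an 18.4-fold lower level in red (log2 fold change -4.21 ± 0.08 SE, adjusted p = 4.3e-05), with stages far apart. For gene05306 the levels were -4.98 and -4.87 in red and -0.92 and -0.83 in green, a fall of 16.5-fold (-4.05 ± 0.08, adjusted p = 4.7e-05). A further lipoxygenase, gene05232, did not reach well above background on the red arrays (-7.61 and -8.05) but did on both green arrays (-3.77 and -3.62), so that it was at least 9.99-fold lower in red (adjusted p = 2.0e-04). For such a gene, at background in a stage, the bound sets the mean of the stage with signal against the higher of the dim stage's own signal and the lowest signal well above background on each array. The bound is no confidence limit, since signals not well above background can exceed that lowest signal. It holds only for the background subtraction used: with normexp the log2 fold changes of gene05232 and gene05306 were -1.13 and -2.32.

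The other lipoxygenases that fell, gene29184, gene32226, gene26749, gene26949 and gene22518, changed by -2.51 to -1.05 on the log2 scale. The gene26949 value is the mean of 2 probes, whose log2 fold changes were -2.47 and -1.94. The neighbour of gene22518 by identifier, gene22519, was at 1.06 and 1.20 in red and 1.10 and 1.24 in green. These stages overlapped (-0.04 ± 0.09, adjusted p = 0.72). The 2 lipoxygenases that were higher were dim: gene29017 was at -2.91 and -2.92 in red, against -3.88 and -3.61 in green (0.82 ± 0.12, adjusted p = 0.0048). For gene29020 the levels were -4.33 and -4.15 in red, against -5.40 and -4.82 in green, and its call (0.87 ± 0.23, adjusted p = 0.030) was lost without red replicate 1 (adjusted p = 0.056) and without red replicate 2 (adjusted p = 0.089). With normexp neither passed, and gene29020 changed sign (-0.22).

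Hydroperoxide lyase and allene oxide synthase share one cytochrome P450 family, and their descriptions overlap on this array. All 3 tested genes of 4 were lower in red. The gene described only as hydroperoxide lyase, gene27155, was at -2.76 and -2.56 in red and -0.97 and -0.71 in green, 3.51-fold lower (-1.81 ± 0.13, adjusted p = 8.0e-04). For gene15063, best matched to allene oxide synthase, levels were 2.46 and 2.42 in red, against 4.73 and 4.70 in green, 4.85-fold lower (-2.28 ± 0.06, adjusted p = 8.0e-05). For gene23976, matched about equally to both enzymes, they were 0.87 and 0.78 in red and 2.73 and 2.66 in green, 3.67-fold lower (adjusted p = 1.7e-04). The stages did not overlap in any of these 3 genes, nor did they in 87% of all genes tested. The fourth, gene31967, was not well above background on any array.

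**Figure D2:**
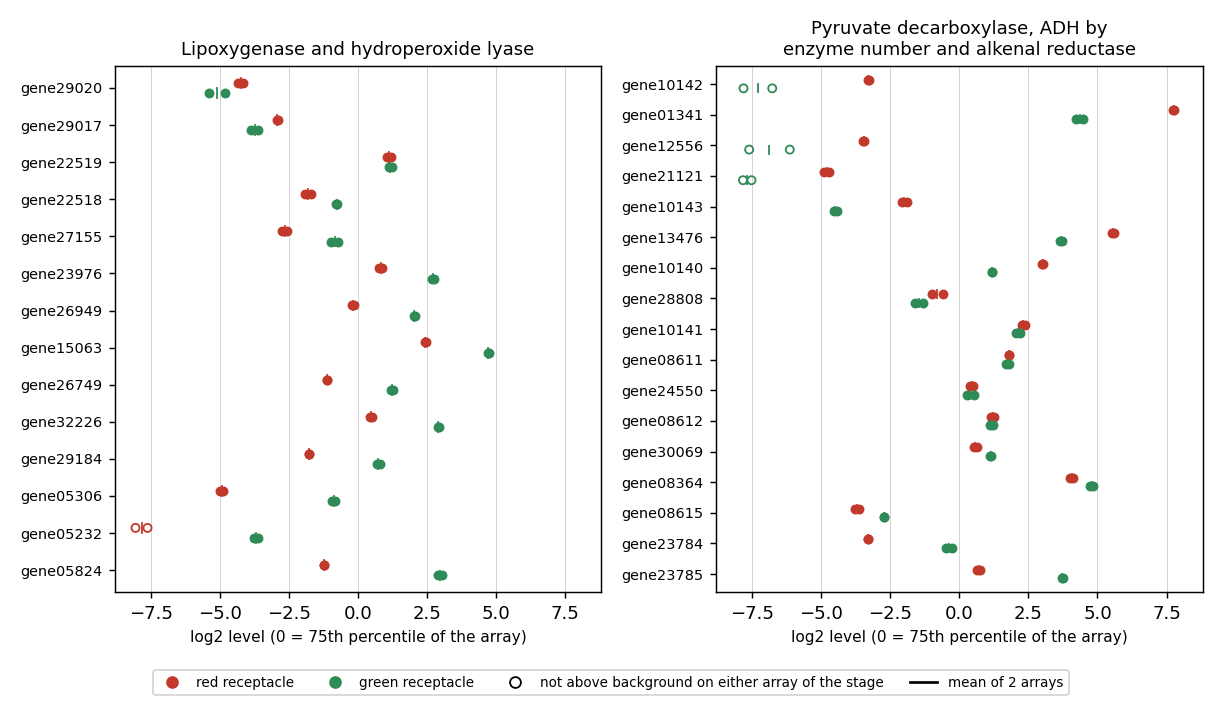
Log2 level on each array (x axis, 0 is the 75th percentile of that array) of tested lipoxygenase and hydroperoxide lyase genes (left) and of pyruvate decarboxylase, alcohol dehydrogenase by enzyme number and alkenal reductase genes (right). Points are arrays, red receptacle above green, open where neither array of a stage was above background, and ticks are means of 2 arrays; gene05824 lay at -1.24 and -1.22 in red and at 3.05 and 2.91 in green, and gene01341 at 7.73 and 7.79 in red and at 4.48 and 4.22 in green.

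Pyruvate decarboxylase and some alcohol dehydrogenases were higher in red. The only pyruvate decarboxylase gene, gene13476, was at 5.53 and 5.60 on the red arrays and at 3.66 and 3.70 on the green arrays. It was 3.69-fold higher in red (1.88 ± 0.07, adjusted p = 1.4e-04). Among 8 genes whose descriptions carry the enzyme number of alcohol dehydrogenase or of its glutathione-dependent formaldehyde form, 7 were tested, and 2 were higher, 3 lower and 2 did not pass. The higher ones were gene01341, at 7.73 and 7.79 in red and 4.48 and 4.22 in green, which was 10.6-fold higher (3.40 ± 0.11, adjusted p = 1.2e-04), and gene12556. The level of gene12556 was -3.44 and -3.48 in red and only at background in green (-6.13 and -7.60), at least 7.04-fold higher (adjusted p = 0.0068). The 3 that were lower, gene08615, gene08364 and gene30069, changed by less than 2-fold (-0.97 to -0.55), and gene08611 and gene08612 did not pass (0.05 each). In the RMA matrix 4 of the 7 were higher and 1 was lower.

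The word alcohol dehydrogenase also caught other oxidoreductases. The whole class of 47 genes (35 tested) had 14 higher (40%), 13 lower (37.1%) and 8 not past the test, with a median of 0.05. These shares were near those of all genes, 37.8% higher and 35.1% lower. In the RMA matrix the class had 20 higher and 10 lower, where 68.9% of all calls were higher. Alkenal reductases, which reduce the double bond of reactive aldehydes in Arabidopsis, counted 5 higher and 2 lower of 9 tested. With normexp 4 were higher, and gene21121, at background in green, changed sign (-0.03, against 2.88). Only 3 were higher when each array had to be well above background. The alkenal reductase gene10142 was at -3.28 and -3.31 in red and at background in green (-7.80 and -6.76). It was at least 9.75-fold higher (adjusted p = 0.0016), though by 0.46 on the log2 scale with normexp. Its neighbours by identifier, gene10140 and gene10143, were higher by 1.82 and 2.49, while gene10141 did not pass (0.20). In contrast, gene23784 and gene23785 fell by 2.94 and 3.02 on the log2 scale, and gene24550 was at 0.51 and 0.39 in red and 0.54 and 0.26 in green, with overlapping stages (0.05 ± 0.13, adjusted p = 0.76).

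Aldo-keto reductases, which reduce aldehydes and ketones including sugars, counted 4 higher and 2 lower of 9. These shares, 44.4% and 22.2%, compare with 37.8% and 35.1% of all genes. The largest increase of the class was gene00617, at 3.60 and 3.63 in red and -1.76 and -1.59 in green. It was 39.3-fold higher (5.29 ± 0.09, adjusted p = 3.7e-05). The identifiers from gene18358 to gene18366, by contrast, held 5 tested aldo-keto reductases that all changed little, from -0.49 to 0.31, with 1 higher, 1 lower and 3 not past the test. The 3 largest decreases of the class were short-chain dehydrogenases, a family with many substrates that includes the maize sex determination protein Tasselseed, of which 2 were higher and 4 lower of 7 tested. For gene30850 the levels were -2.91 and -3.25 in red, against 1.52 and 1.67 in green, 25.5-fold lower (-4.67 ± 0.15, adjusted p = 1.0e-04). For gene11941 they were -2.29 and -2.39 in red and 2.02 and 2.19 in green, 21.7-fold lower (adjusted p = 5.0e-05). The next gene by identifier, gene11942, was at -4.16 and -4.64 in red and -0.10 and -0.07 in green, 19.8-fold lower (adjusted p = 2.0e-04). A sorbitol dehydrogenase, gene13341, which in Rosaceae works on the transport sugar sorbitol, fell by 2.03 on the log2 scale.

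Alcohol acyltransferases, the last step of ester formation, held all 5 increases of over 64-fold. Among 14 genes whose descriptions name an alcohol acyltransferase or a benzyl alcohol benzoyltransferase, 12 were tested and all of these passed, 8 higher and 4 lower in red, with a median of 3.69 (3.43 with genes at background set to their bound) and a range from -4.83 to 6.66 among those with no stage at background. These counts were also 8 and 4 in the RMA matrix, with quantile normalization and with normexp. They were 66.7% and 33.3% of those tested, against 37.8% and 35.1% of all genes. On the red arrays gene33976 was at 6.85 and 6.85, against 0.24 and 0.13 on the green arrays, a 101-fold higher level (6.66 ± 0.07, adjusted p = 3.1e-05). For gene23453 the levels were 6.50 and 6.52 in red and 0.01 and 0.07 in green, 88.6-fold higher (adjusted p = 3.1e-05). For gene34008 they were 7.41 and 7.53 in red and 1.21 and 1.20 in green, 77.0-fold higher (adjusted p = 3.1e-05). In each, the gap between the stages was far wider than that between the arrays of a stage.

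The identifier of gene34008 lies next to that of FaAAT1, gene34009, and gene34010 and gene34011 follow it. These last 2 rose by 6.26 and 6.10 on the log2 scale, and FaAAT1 itself, not counted among the 181 genes, was at 4.24 and 4.26 in red and -1.80 and -2.08 in green, higher by 6.19 ± 0.12. FaAAT2, gene07931, was higher by 4.89. Whether probes of such like-described copies tell their transcripts apart is not known from the files, so that the separate increases of gene34008, gene34010 and gene34011 are uncertain. The same holds for gene33976 and gene23453, which carry the same leading description.

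Some alcohol acyltransferase genes moved the other way. The level of gene28057 was at background on the red arrays (-8.07 and -8.08), against -0.42 and -0.51 on the green arrays, at least 93.8-fold lower (adjusted p = 3.1e-05), and its log2 fold change was -3.09 with normexp. The following genes were chosen after their values were seen. The benzyl alcohol benzoyltransferase gene27512, of a type that makes benzyl benzoate in other plants, was at -4.07 and -3.91 in red and 0.80 and 0.88 in green, 28.4-fold lower (adjusted p = 4.2e-05). The consecutive identifiers gene22293 and gene22294 share their leading description, alcohol acyl transferase, and opposed each other. For gene22293 levels were -5.70 and -5.65 in red, against -1.31 and -1.23 in green, 21.2-fold lower (adjusted p = 3.5e-05). For gene22294 they were 2.05 and 1.93 in red and -1.50 and -1.64 in green, 11.8-fold higher (adjusted p = 6.7e-05).

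**Figure D3:**
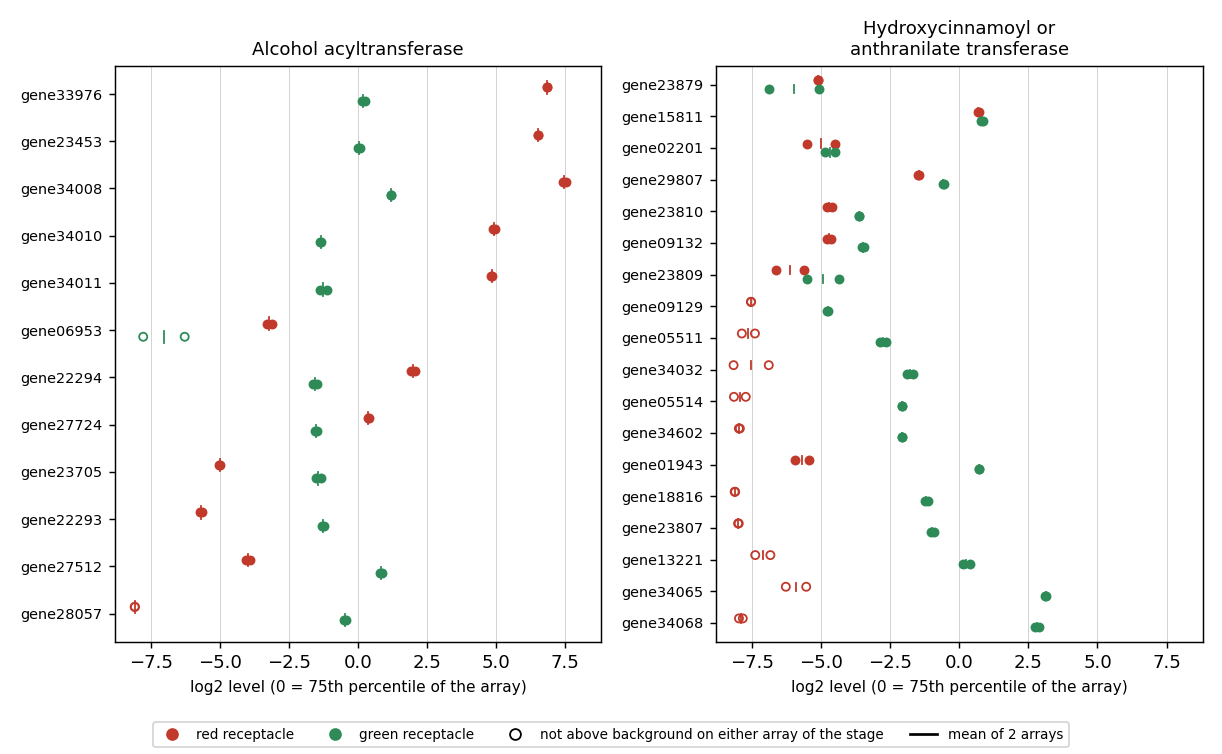
Log2 level on each array (x axis, 0 is the 75th percentile of that array) of tested alcohol acyltransferase genes (left) and hydroxycinnamoyl or anthranilate transferase genes (right), ordered by log2 fold change. Points are arrays, red receptacle above green, open where neither array of a stage was above background, and ticks are means of 2 arrays. In these subgroups, formed after values were seen, 8 of 12 genes on the left were higher in red, against 0 of 18 on the right.

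The transferases sorted by description as hydroxycinnamoyl or anthranilate transferases were mostly lower in red. These are BAHD enzymes that in other plants make chlorogenic acid, lignin precursors or phytoalexins rather than volatile esters. Of 25 genes 18 were tested, with 14 lower in red at an adjusted p under 0.05 in limma, 0 higher and 4 that did not pass, and a median of -5.30 (-4.60 with genes at background set to their bound). Lower genes were 77.8% of those tested, against 35.1% of all genes. At an unadjusted p under 0.05, 0 were higher in limma and 0 by the methods' Student test. In the RMA matrix 14 were lower and 1 was higher. Subgroups were formed after values were seen, and some genes best matched to anthranilate N-benzoyltransferase were sorted into other acyltransferase subgroups. Of these, gene06955 (4.90), gene06953 (3.81) and gene02309 (0.55) were higher, the first 2 at background in green. In contrast, gene06903 (-2.04), gene06904 (-1.15) and gene06950 (-0.89) were lower, and gene06715 and gene09928 did not pass. The level of gene34068 was at background on both red arrays (-7.97 and -7.83), against 2.75 and 2.87 on the green arrays, at least 909-fold lower (adjusted p = 3.1e-05). For gene34065, levels were -6.27 and -5.53 in red, also at background, and 3.10 and 3.15 in green (adjusted p = 9.4e-05). Its own red signals exceeded the lowest signal well above background, so its bound of 523-fold lower is the fitted fold itself. With normexp the log2 fold change of gene34068 was -5.98. When only probes well above background on all 4 arrays were kept, 4 genes of the group were called lower, with log2 fold changes of -6.39 to -0.89. The other genes called lower were at background on both red arrays. They passed the filter only through green, where they were high, so the group median depends on them. The largest decrease in a gene above background in both stages was that of gene01943, chosen after its values were seen, at -5.42 and -5.93 in red and 0.73 and 0.70 in green (-6.39 ± 0.19, adjusted p = 9.3e-05). One that did not pass, gene15811, was at 0.67 and 0.72 in red and 0.86 and 0.79 in green (-0.13 ± 0.07, adjusted p = 0.17).

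The remaining acyltransferases split. Among the 24 genes likened to salutaridinol acetyltransferase or to benzoyltransferases of taxol synthesis, 12 were tested, with 4 higher, 6 lower and 2 not past the test (median -0.56). That is 33.3% higher and 50% lower, against 37.8% and 35.1% of all genes. Only 2 were higher with normexp, where gene08635 (-0.02, against 2.83) and gene02309 (-0.24, against 0.55) changed sign, and 2 were higher when each array had to be well above background. The smallest change of all acyltransferases was that of gene09928, at 0.89 and 0.91 in red and 0.89 and 1.00 in green (-0.05 ± 0.07, adjusted p = 0.61), which was higher by 0.42 in the RMA matrix. Among the identifiers from gene06900 to gene06955, 7 acyltransferases were tested, and 3 were higher and 4 lower. Of these gene06955, also chosen after its values were seen, was at -2.79 and -2.74 in red and at background in green (-7.82 and -7.51), at least 14.1-fold higher (adjusted p = 7.2e-05). Glycerol-3-phosphate acyltransferases, which start the synthesis of membrane, storage and cutin lipids, had 3 genes higher (gene18829 by 3.85, gene20437 by 2.70 and gene31311 by 1.57) and 0 lower of 4 tested, also at an unadjusted p under 0.05 in limma and by the methods' Student test, but 1 was lower with normexp and 1 without green replicate 1. A lecithin:cholesterol acyltransferase-like gene, gene02603, fell by 1.97 on the log2 scale, and so did the wax synthase-like gene24173, by 1.63, while the other wax synthase-like gene, gene21869, was at background in red and at least 58.6-fold lower (adjusted p = 3.1e-05). Over the whole class of 72 acyltransferases 49 were tested, with 15 higher and 27 lower, and with 11 higher and 13 lower among those well above background on all 4 arrays.

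Carboxylesterases, which hydrolyse esters, included members that were much higher in red and others that were much lower. Of 35 genes 31 were tested, with 9 higher, 16 lower and 6 not past the test (median -0.35), with 11 higher and 12 lower in the RMA matrix. In the main fit 29.0% were higher and 51.6% lower, against 37.8% and 35.1% of all genes. On the red arrays gene28508 was at 4.89 and 4.81, against -0.78 and -0.63 on the green arrays, 46.9-fold higher (5.55 ± 0.09, adjusted p = 3.5e-05). For gene28615 the levels were 2.96 and 2.86 in red and -2.52 and -2.48 in green, 42.4-fold higher (adjusted p = 3.2e-05). For gene28611 they were 3.79 and 3.70 in red and -1.13 and -1.19 in green, 30.0-fold higher (adjusted p = 3.3e-05). All 3 were best matched to PrMC3, an esterase-like protein of pine male cones, and near-identical copies may share their signal.

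In the opposite direction, gene28538 was at -3.45 and -3.67 in red and 2.19 and 2.18 in green, 53.6-fold lower (-5.74 ± 0.10, adjusted p = 4.2e-05). For gene21461 levels were -4.58 and -4.37 in red, against -0.35 and -0.38 in green, 17.3-fold lower (adjusted p = 5.9e-05). Of 2 genes best matched to the hypersensitive response protein Hsr203J of tobacco, gene21464 was at background in red (-7.11 and -7.19) and was at -3.16 and -2.72 in green, at least 16.8-fold lower (adjusted p = 1.8e-04), and gene21445 did not pass (0.33 ± 0.32, adjusted p = 0.41). The identifiers from gene28508 to gene28538 held 8 tested carboxylesterases, of which 2 were higher and 5 lower. Among them, gene28524 had the smallest change of the class but also the widest gap between red arrays: it was at -4.62 and -6.71 in red, and -5.97 and -5.38 in green, above background on 1 array of each stage (0.01 ± 0.79, adjusted p = 0.99), and its sign changed with the arrays left out. Some members are likened to the gibberellin receptor GID1, which shares the esterase fold. One of these, gene19449, chosen after its values were seen, fell by 2.19 on the log2 scale.

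**Figure D4:**
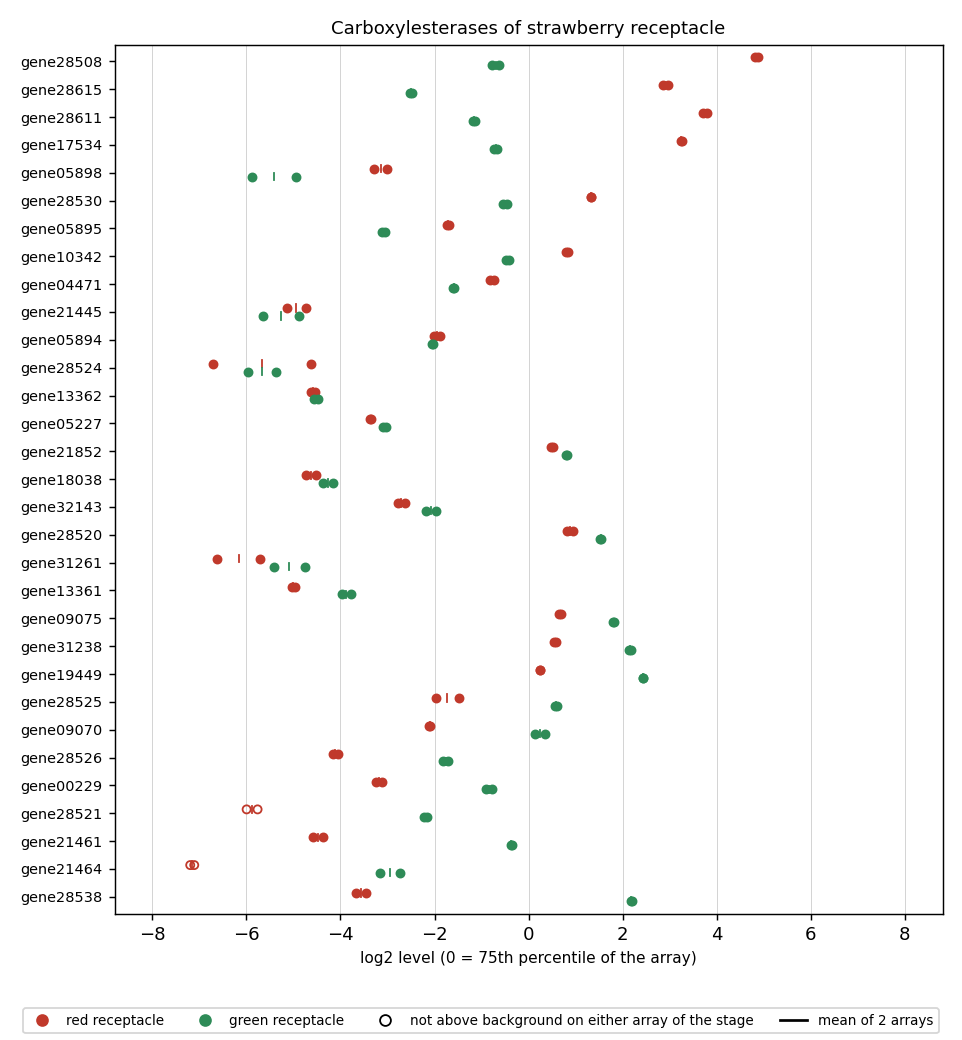
Log2 level on each array (x axis, 0 is the 75th percentile of that array) of the 31 tested carboxylesterase genes, ordered by log2 fold change. Points are arrays, red receptacle above green, open where neither array of a stage was above background, and ticks are means of 2 arrays; the top row, gene28508, lay at 4.89 and 4.81 in red and at -0.78 and -0.63 in green, and the bottom row, gene28538, at -3.45 and -3.67 in red and at 2.19 and 2.18 in green.

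The words transferase family protein also matched 5 genes that are not acyltransferases, 4 of them tested. Aminotransferases of the tyrosine and nicotianamine kind move amino groups between amino acids and keto acids. The consecutive identifiers gene17744 and gene17745 carry nearly the same descriptions and moved apart. For gene17744 levels were -0.05 and -0.10 in red, against 2.98 and 2.95 in green, 8.23-fold lower (adjusted p = 4.9e-05). For gene17745 they were 0.48 and 0.30 in red and -2.82 and -2.69 in green, 8.87-fold higher (adjusted p = 1.1e-04). Another aminotransferase, gene24982, was 6.96-fold higher, and the methyltransferase gene21027 was 1.45-fold higher (adjusted p = 0.0037).

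Position among the identifiers was not used to choose the genes. In 22 instances consecutive identifiers were both tested and of the same class. Both were higher in 3 of these pairs, both lower in 5 and opposite in 3, namely gene22293 with gene22294, gene17744 with gene17745, and gene06952 (-1.63) with gene06953 (3.81, at background in green). Neither gene passed in 2 pairs, and 1 of the genes did not pass in the other 9.

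Other genes of lipid oxidation, jasmonate and volatile synthesis, chosen by description and none of them among the 181, numbered 139. Of these 113 were tested (median 0.10), and 52 were higher (46.0%) and 41 lower (36.3%) in red, against 37.8% and 35.1% of all genes. In the RMA matrix 64 were higher and 28 lower, where 68.9% of all calls were higher. Genes named here were chosen after their values were seen. Allene oxide cyclase, which follows allene oxide synthase, was lower in 3 of 3 genes. The largest of these decreases was that of gene10328, at -1.69 and -1.63 in red and 4.72 and 4.90 in green. Of 9 tested genes described as oxophytodienoate reductase, 7 were higher and 1 lower, from -1.89 (gene12480) to 4.66 (gene25089). This family includes the next enzyme towards jasmonate, and the descriptions do not tell which genes encode it. All 4 tested genes described as fatty acid desaturase were lower, while 1 of the genes described as omega-3 desaturase, gene13454, was higher by 3.58 and the other, gene07920, fell by 3.22 on the log2 scale. O-methyltransferases, a family that methylates phenolics and, in strawberry, furaneol, were higher in 17 and lower in 6 of 25 tested genes, led by gene15184 at 6.45 and 6.53 in red and -1.11 and -1.12 in green.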

How the data were processed

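The scanner files give intensity values per spot, background-subtracted by Agilent Feature Extraction 10.7.3.1 according to the submitters' notes and deposited as they were read. An RMA matrix of intensity values that the authors deposited served as an alternative. Log2 processed signals were set relative to each array's 75th percentile over non-control spots, spots marked as uneven or outliers were left out, and probes with signal well above background on 2 or more arrays were averaged per gene. The 24975 genes were fitted in limma 3.58.1 (lmFit, eBayes; R 4.3.3), two-sided, with Benjamini-Hochberg adjustment over all of them and a threshold of 0.05. The 75th percentile signals were 671 and 509 on the red and 390 and 347 on the green arrays, and 4 arrays limit the precision. The method was tested on simulated data with independent noise and far fewer changed genes than were called here, so that test does not cover this design. Named genes are the 3 largest increases and decreases past the test in each class (2 each for other transferase family proteins), all members of classes with 4 or fewer, and the smallest tested change. Members, classes and lists were chosen with earlier results of these data known, and subgroups after their values were seen. The reference table did not pair the array's identifiers with genes and was not used here.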

Additional observations from a re-analysis of the deposited data

How the results depend on the processing

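Counts of 44 members higher and 68 lower in red stayed within 1.5 times of these values under all scalings, filters, limma settings, the replicate block (41 and 69), the slide block and the methods' Student test, and between 40 and 43 higher and 64 and 69 lower when each sample was left out. By the study's criteria (log2 fold change over 2 and unadjusted p of 0.05 or less) 25 were higher and 43 lower. With members taken by the first hit of the description alone, 8 were higher and 15 lower. Another 2 choices were made after seeing the data. The 116 members by the hit with the lowest E-value gave 25 higher and 46 lower. The 130 members of the subgroups of the named enzymes gave 27 higher and 55 lower. These 130 still held the hydroxycinnamoyl or anthranilate transferases (0 higher, 14 lower) and the salutaridinol or taxol type (4 higher, 6 lower). The same-numbered samples of the stages deviated together only weakly (r = 0.08 over 24975 genes), so the numbers were not taken as pairs.

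Of 35 named genes tested, signs changed only in gene29020 with normexp (-0.22) and in 4 genes near 0 that did not pass. For gene28524 the value was -0.36 with normexp, -1.03 with the slide block and -1.03 to 1.06 when samples were left out. For gene24550 it was -0.018 with quantile normalization, -0.011 with the slide block, 0.51 and past the test in the RMA matrix, and -0.093 to 0.19 without a sample. For gene09928 it was 0.42 in the RMA matrix and -0.10 to 0.012 without a sample. For gene22519 it was 0.42 in the RMA matrix, 0.028 with the slide block and -0.11 to 0.028 without a sample. The cause was not tested. Signal over background limits dim genes: 17 members were at background in red and 6 in green, so that their fitted folds depend on the background correction.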
